A study of Mus musculus with 12 samples.

Results

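Multipotent progenitors (MPP) and splenic CD4+ T cells were set against haematopoietic stem cells (HSC) and PreMegE progenitors, across 18193 genes measured on Affymetrix arrays. All 12 arrays of the series entered the comparison, 5 on the first side (3 MPP and 2 CD4+ T) and 7 on the second (3 HSC and 4 PreMegE). The value of a gene is the average of the MPP and CD4+ T group means minus the average of the HSC and PreMegE group means, so that each population counts equally. Every population came from C57Bl/6 mice aged 10 to 12 weeks, and the labels give no treatment, transgene or knockout. HSC were bone marrow cells without lineage markers that carried cKit, Sca1 and CD150 but no Flt3, and MPP were bone marrow cells of the same lineage-negative, cKit+, Sca1+ compartment that carried Flt3 but no CD150. PreMegE, a bone marrow progenitor of megakaryocytes and red cells, were lineage-negative, cKit+, CD150+ cells without Sca1, CD105 or CD41. The T cells were sorted from spleen as CD4+ cells that lacked CD8, B220 and Nk1.1. The series' authors sorted the HSC and MPP themselves and reused PreMegE and T cell arrays of 2 earlier studies. Population and study therefore cannot be told apart except between MPP and HSC, and the difference MPP minus HSC, the within-study measure, is given beside the main values of leading genes and lists.

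Blood cell formation starts in HSC, and progenitors that gain Flt3 retain lymphoid and granulocyte-monocyte potential while losing most of the potential to make megakaryocytes and red cells. In the latter branch GATA factors act together with FOG1 (Zfpm1), TAL1 and KLF1 to switch on red cell and platelet genes. Before commitment, lymphoid-primed progenitors already transcribe some lymphoid genes at low level, a state called lymphoid priming. In these bulk samples, fewer cells of a type and less RNA per cell cannot be told apart.

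Levels are log2 of the deposited probe set intensities, so a difference of 1 is a 2-fold difference, and levels of different genes are not compared. Array medians lay between 14.4 and 15.6 on the linear scale, and replicates correlated across genes at 0.984 to 0.994. The ratio of the 3' to the 5' beta-actin probe sets, a sign of RNA length, differed between populations: 2.35 to 2.77 (log2) on HSC and MPP arrays, 3.49 to 4.65 on PreMegE and 0.99 to 1.13 on T cell arrays. Its part in the results was not tested. HSC replicate 1 carried Xist at 12.04, against 2.45 and 2.59 on HSC replicates 2 and 3, which alone carried the Y-linked Eif2s3y (7.46 and 8.47), so the HSC arrays were not all from mice of 1 sex. Every MPP, PreMegE and T cell array carried Xist (10.91 to 12.44) and had Eif2s3y at no more than 2.71. MPP minus HSC thus also differs in part by sex, whose part in the results was not tested. HSC replicate 2 and PreMegE replicate 1 stood above the other arrays of their populations for the immunoglobulin gene Ighm and several neutrophil genes, and results that rest on them are given with and without those arrays. The labels were borne out by Flt3, at 9.95 to 10.1 on MPP arrays and no higher than 6.82 elsewhere, and by Cd3d, at 10.71 and 11.06 on T cell arrays and no higher than 3.87 elsewhere. Not every sort marker did so. Of the CD8 genes, which the T cell sort excluded, Cd8b1 was called higher in MPP and T cells (1 to 1.13 as single arrays were left out). Cd8a was not called (-0.13 to 0.04). Slamf1, which encodes CD150, lay at 3.53 to 3.86 on MPP arrays and at 6.58 to 7.25 on those of HSC, PreMegE and T cells. In PreMegE, Klf1 lay at 11.03 to 11.79, and in HSC, Mecom lay at 9.48 to 9.92, against 8.8 to 9.02 in MPP.

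The comparison split into a lymphoid-shared set that included Satb1, Cd53, Socs3 and Cnn3 and an HSC-PreMegE-shared set that included Car1, Mfsd2b, Aqp1 and Gata1. Over all genes, 5750 of 18193 (31.6%) were called in limma at an adjusted p under 0.05, 2937 (16.1%) higher in MPP and T cells and 2813 (15.5%) higher in HSC and PreMegE. Of these, 988 and 853 differed at least 2-fold. Many of them moved in T cells alone: 449 of the 988 and 438 of the 853 differed less than 2-fold in MPP from both HSC and PreMegE, while the reverse, a difference under 2-fold in T cells, held for 63 and 20. A gene was therefore termed shared where it was called and each of the 4 differences (MPP minus HSC, MPP minus PreMegE, T minus HSC and T minus PreMegE) had the same sign and was at least 2-fold. The rule kept 118 genes higher in MPP and T cells (0.649% of genes) and 97 higher in HSC and PreMegE (0.533%). The arrays of the sides did not overlap for 114 and 94 of them, against 5.91% of all genes, but the rule itself favours this. The exceptions were Igha, Nfkbiz, Jchain and Plk3 on the lymphoid side and Lockd, F10 and Otub2 on the other, chosen here for that overlap. The call of Lockd ended without CD4+ T replicate 1 (-1.26). With HSC replicate 2 and PreMegE replicate 1 left out, 119 and 103 genes met the rule, of which 105 and 87 were the same genes.

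**Figure D1:**
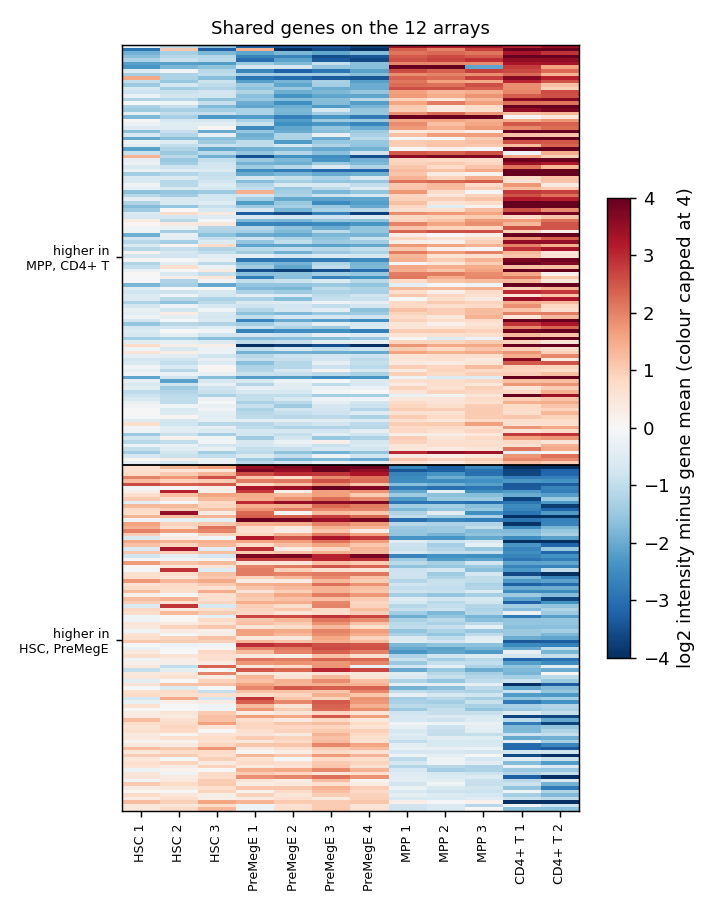
Log2 intensity of the 118 and 97 shared genes (rows) on the 12 arrays (columns), each row centred on its own mean, with red above and blue below it and the colour capped at 4. The rule chose these genes for the contrast between the sides, so the picture shows how the populations and arrays of a side carry it. Between the populations of a side, T cells are called higher than MPP in 57 of the 118 rows of the upper block. PreMegE is called higher than HSC in 41 of the 97 rows of the lower one.

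Satb1, a chromatin organiser required in lymphoid cells, had nearly the same level on every array of a population. It lay at 5.68, 5.68 and 5.64 in HSC and at 6.45, 6.09, 6.92 and 6.2 in PreMegE, against 9.82, 9.78 and 9.77 in MPP and 11.14 and 11.2 in T cells. The lowest MPP array stood well above the highest array of the other side. The difference was 4.44 ± 0.13 (log2, SE; limma adjusted p = 1.94e-12), and within the study that sorted both HSC and MPP it was 4.12. Cd53, a tetraspanin of white blood cells, lay at 5.29, 5.86 and 5.82 in HSC, 4.29, 4.31, 3.43 and 3.58 in PreMegE, 9.42, 9.58 and 9.41 in MPP, and 11.11 and 11.46 in T cells. Its difference was 5.60 ± 0.17 (limma adjusted p = 2.15e-12; MPP minus HSC 3.82), and PreMegE lay 1.75 below HSC, so that Cd53 spread the 4 populations further than Satb1 did. Cnn3, an actin-binding calponin, lay at 4.51, 5.12 and 4.64 in HSC, 4.33 to 4.7 in PreMegE, 8.6, 8.71 and 8.6 in MPP and 9.74 and 9.35 in T cells. For Cnn3 the low populations did not differ (PreMegE minus HSC -0.24, limma adjusted p = 0.351), and the main difference was 4.45 ± 0.13 (MPP minus HSC 3.88).

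**Figure D2:**
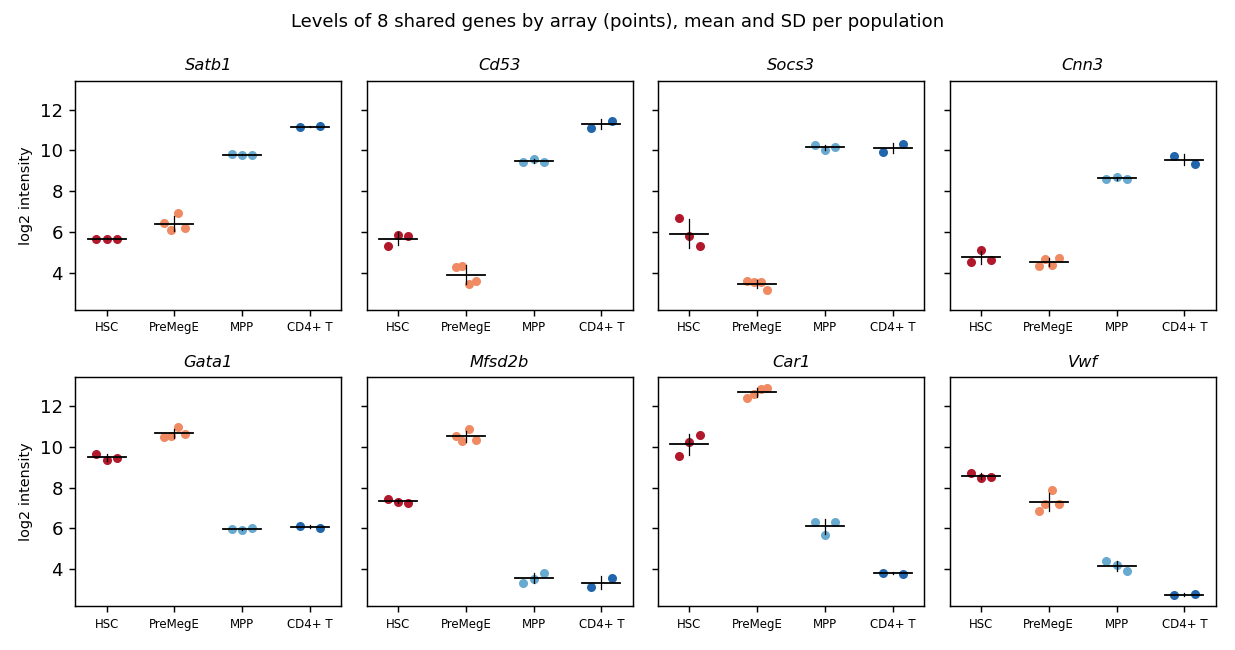
Log2 intensity on each array (points) of 4 genes higher in MPP and T cells (Satb1, Cd53, Socs3, Cnn3) and 4 higher in HSC and PreMegE (Gata1, Mfsd2b, Car1, Vwf), by population, with the mean (horizontal line) and SD (vertical line) of 3 HSC, 3 MPP, 4 PreMegE and 2 T cell arrays. Satb1 lies at 5.64 to 6.92 on the arrays of HSC and PreMegE and at 9.77 to 11.2 on those of MPP and T cells, and Gata1 lies at 9.35 to 10.96 and 5.92 to 6.14 in the same order.

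Other surface molecules of the shared set differed in how near MPP came to the T cell level. Emb (embigin, a partner of monocarboxylate transporters) lay at 6.09, 6.45 and 6.26 in HSC, 4.27, 5.18, 4.0 and 3.73 in PreMegE, 9.9, 10.03 and 10.29 in MPP and 10.88 and 10.86 in T cells, so MPP nearly reached the T cell level (T minus MPP 0.80, limma adjusted p = 0.0554). The same was seen for Cd69, an early activation antigen, at 5.05 to 6.03 in HSC, 2.92 to 4.01 in PreMegE, 8.51 to 8.91 in MPP and 8.43 to 8.8 in T cells (main difference 4.17 ± 0.20, MPP minus HSC 3.16). Cd27, a costimulatory receptor of the TNF receptor family, lay at 6.08 to 6.23, 5.04 to 5.78, 8.31 to 8.63 and 8.94 to 9.61 in the order HSC, PreMegE, MPP, T cells. In contrast, Il7r, the receptor chain for the lymphoid growth factor IL-7, lay at 3.02, 3.94 and 3.09 in HSC, 3.24, 3.28, 3.12 and 3.25 in PreMegE, only 5.13, 5.34 and 5.06 in MPP, and 11.63 and 11.66 in T cells. Its difference was 1.83 between MPP and HSC but 8.42 between T cells and PreMegE, and these differed from each other by 6.59 (limma adjusted p = 2.34e-10). Cd28, the costimulatory receptor of T cells, had the same form and lay at 2.4 to 2.79 in HSC and 2.44 to 3.39 in PreMegE, at 4.41, 4.4 and 5.47 in MPP, and at 9.34 and 10.28 in T cells. S1pr1, the receptor through which lymphocytes leave tissue towards sphingosine-1-phosphate, lay at 4.6 to 5.27 in HSC, 5.85 to 6.52 in MPP and 9.09 to 9.29 in T cells.

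Among nuclear regulators, Irf8, Klf2, Id2, Id3 and Nfatc1 of the 25 measured lymphoid transcription factors met the shared rule. Of that list, 19 rose and 1 fell, Sox4 (-1.21), and its median difference was 1.69 against -0.042 over all genes. Against HSC alone, however, MPP showed 8 of the 25 higher and 1 lower, with a median of 0.32, whereas T cells were called higher than PreMegE in 19. Over all genes, 11.3% were called between MPP and HSC (6.38% higher and 4.93% lower in MPP) and 33.1% between T cells and PreMegE (16.3% higher in T cells). Irf8, a factor of lymphoid and monocyte-dendritic development, stood higher in MPP than in T cells (T minus MPP -0.83, limma adjusted p = 0.0304): 4.59, 5.37 and 5.07 in HSC, 4.67, 4.0, 4.71 and 4.1 in PreMegE, 8.32, 8.29 and 8.66 in MPP, and 7.95 and 7.24 in T cells. Id2 and Id3, inhibitors of E proteins, rose less in MPP: Id3 lay at 3.0 to 3.46 in HSC and 2.89 to 3.48 in PreMegE, at 5.09 to 5.9 in MPP and at 8.21 and 8.28 in T cells. Klf2, which governs lymphocyte trafficking, lay at 8.5, 5.72 and 5.23 in HSC, 3.51 to 4.07 in PreMegE, 9.31, 9.19 and 9.68 in MPP and 10.58 and 10.07 in T cells. HSC replicate 1 thus stood close to MPP for Klf2, and the main difference of 4.73 ± 0.41 was 3.73 with that array as the only HSC array. Bcl11b, Lef1 and Ets1, regulators of T cell identity, were not shared: Bcl11b lay at 3.28 to 3.51 in MPP and at 11.29 and 11.57 in T cells.

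The lymphoid priming list held 24 measured genes, of which 16 rose, 3 fell and 11 met the shared rule, with a median difference of 1.83. Within the study, 14 were higher and 1 lower in MPP than HSC, with a median of 1.35. Dntt, the template-free DNA polymerase that diversifies antigen receptors, was carried by MPP far above T cells: 5.12, 5.57 and 4.59 in HSC, 4.66, 4.14, 4.56 and 4.06 in PreMegE, 11.98, 11.82 and 11.96 in MPP, and 6.83 and 7.35 in T cells. The MPP excess over HSC was 6.83, and T cells lay 4.83 below MPP (limma adjusted p = 8.32e-10). Notch1, the receptor that starts T cell fate, lay at 7.73 to 8.34 in HSC, 5.71 to 6.72 in PreMegE, 9.71 to 9.99 in MPP and 10.18 to 10.49 in T cells. Blnk, an adaptor of the pre-B cell receptor, rose to 5.54 to 6.05 in MPP and 5.41 to 5.79 in T cells from no more than 4.02 in the other populations. Several B cell genes also stood higher on the T cell arrays, as described below, and their part in the Blnk values there was not tested. The recombinase gene Rag1 (0.04) and the B cell factor Ebf1 (-0.10) were not called in the main comparison. The members that fell were Bcl11a (-3.08), Mef2c (-2.41) and Rag2 (-0.58), the recombinase partner of Rag1, the last not called without CD4+ T replicate 1 (-0.46). For Bcl11a, a factor needed for lymphoid development, MPP lay at 9.93 to 10.06 beside 9.91 to 10.45 in HSC, and the fall came from T cells at 4.27 and 4.73.

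Ighm, Igha and Jchain, which encode immunoglobulin chains and the joining chain, met the rule with arrays of one population far apart. Ighm lay at 5.04, 9.04 and 4.71 in HSC and 9.35, 3.57, 4.36 and 3.61 in PreMegE, against 10.38, 9.94 and 10.73 in MPP and 12.28 and 12.49 in T cells. The high values of the second side were those of HSC replicate 2 and PreMegE replicate 1, and without these arrays the difference grew from 5.62 ± 0.91 to 7.01. Igha lay at 9.86 and 9.9 on MPP replicates 1 and 2 but at 3.74 on replicate 3. B cell genes moved beside them on the T cell arrays, where the 16 measured members of the B cell list had a mean level of 5.63 and 5.83, against 3.86 to 4.52 elsewhere. Ms4a1, which encodes CD20, lay at 6.45 and 6.76 there and at 2.66 to 3.42 on the other arrays, while Pax5, the factor of B cell identity, lay at 3.37 and 3.46 there and at 3.41 to 4.3 elsewhere. Of the 16, 12 rose, and their part in the immunoglobulin values was not tested.

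Signalling genes formed a further group with high levels in MPP. Socs3, a feedback inhibitor of cytokine receptors, lay at 6.69, 5.78 and 5.3 in HSC, 3.61, 3.53, 3.53 and 3.17 in PreMegE, 10.25, 10.02 and 10.18 in MPP and 9.93 and 10.31 in T cells, a main difference of 5.44 ± 0.19 (limma adjusted p = 8.15e-12; MPP minus HSC 4.22). Of 22 genes of NF-kB and inflammatory signalling, 19 rose, 1 fell and 4 were shared (Rel, Nfkbiz, Tnfaip3 and Cd69), with a median of 1.53 that was 0.80 between MPP and HSC. Tnfaip3, an NF-kB inhibitor, lay at 7.91, 6.72 and 6.86 in HSC, 6.34 to 7.04 in PreMegE, 10.44 to 10.67 in MPP and 9.03 and 8.29 in T cells. Of 23 immediate early genes, which respond within minutes to stimulation, including handling of cells, 19 rose, Myc fell (-1.31), and 5 were shared (Junb, Ier5, Dusp2, Btg2 and Gadd45b). The mean level of that list was 9.55 to 9.61 in MPP, 7.13 and 7.55 in T cells and 5.48 to 5.71 in PreMegE. In HSC it was 8.43 on replicate 1 against 7.63 and 7.34 on the other 2 arrays. T cells thus lay within or below the HSC range for the list as a whole, and handling and sort study were not tested for their part in it. Fos, the founding member, lay at 12.76 to 13.27 in HSC and MPP alike, at 10.1 and 8.49 in T cells and at 4.54 to 6.19 in PreMegE.

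Granulocyte and monocyte genes marked where MPP and T cells parted. Of 22 measured, 14 rose, 1 fell and 4 were shared (Emb, Irf8, Csf1r and Gfi1), while MPP was called higher than HSC in 15 with a median of 1.25 and T cells differed from PreMegE by a median of -0.04. Csf1r, the receptor for macrophage colony-stimulating factor, lay at 6.15 to 7.77 in HSC, 5.02 to 6.07 in PreMegE, 8.54 to 8.63 in MPP and 8.25 to 8.29 in T cells. Mpo, the granule enzyme myeloperoxidase, lay at 11.25 to 11.56 in MPP but at 3.33 and 4.09 in T cells, and was not called in the main comparison (0.67), though it was without PreMegE replicate 1 (0.97). Ctss, the lysosomal protease cathepsin S, was shared, with 9.98 to 10.27 in MPP and 12.19 to 12.24 in T cells, against 7.82 to 9.15 in HSC and 4.67 to 5.69 in PreMegE. Of the 17 measured macrophage genes, 3 rose and none fell, near the 16.1% of all genes that rose. The defining complement gene C1qa (0.67) was not called, though it was without CD4+ T replicate 2 (1.07) or HSC replicate 2 (0.84). Without HSC replicate 2, 7 of the 17 rose, and without PreMegE replicate 1 as well, 6 did.

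The opposite set included transcription factors of the red cell and platelet branch. Gata1 lay at 9.65, 9.35 and 9.44 in HSC and 10.48, 10.54, 10.96 and 10.65 in PreMegE, against 5.95, 5.92 and 6.01 in MPP and 6.14 and 6.03 in T cells. MPP and T cells shared 1 low level (T minus MPP 0.13, limma adjusted p = 0.64), and the main difference was -4.05 ± 0.11 (limma adjusted p = 1.19e-12; MPP minus HSC -3.52). Klf1, an activator of globin and red cell membrane genes, was graded within its side: 7.65, 7.81 and 8.03 in HSC, 11.03, 11.19, 11.79 and 11.45 in PreMegE, and 4.43 to 5.07 in MPP and T cells. Of 20 genes of the GATA and TAL1 network, 15 fell, none rose and 6 were shared (Gata1, Gata2, Zfpm1, Tal1, Klf1 and Gfi1b), with a median of -2.32. Within the study 8 of the 20 were called lower in MPP than HSC, with a median of -0.39, whereas the median between T cells and PreMegE was -4.06. MPP kept intermediate levels for several of them. Tal1, the partner of GATA factors, lay at 9.31 to 9.93 in HSC, 9.39 to 9.71 in PreMegE, 8.28 to 8.62 in MPP and only 3.97 and 4.09 in T cells, and Gata2 lay at 10.49 to 10.97, 8.87 to 9.18, and 6.16 and 6.24 in HSC with PreMegE, MPP and T cells. Lmo2, which bridges TAL1 and GATA factors, did not meet the rule: MPP lay at 11.27 to 11.44, beside 11.0 to 11.6 in HSC and PreMegE, and T cells at 5.41 and 5.82.

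Of 33 measured erythroid genes, 21 fell, 3 rose, 9 were not called and 10 were shared, with a median of -1.5. MPP was called lower than HSC in 15 and higher in none, with a median of -0.82. Mfsd2b, through which red cells and platelets export sphingosine-1-phosphate, lay at 7.44, 7.31 and 7.26 in HSC, 10.54, 10.31, 10.89 and 10.33 in PreMegE, 3.33, 3.53 and 3.8 in MPP, and 3.11 and 3.56 in T cells. Its difference was -5.48 ± 0.14 (limma adjusted p = 7.75e-13; MPP minus HSC -3.78), and PreMegE exceeded HSC by 3.18. Car1, carbonic anhydrase 1, had the largest difference of the set, -6.45 ± 0.18 (MPP minus HSC -4.03), with 9.57, 10.26 and 10.57 in HSC, 12.38, 12.6, 12.83 and 12.87 in PreMegE, 6.31, 5.66 and 6.32 in MPP and 3.83 and 3.76 in T cells. Aqp1, a water channel, lay at 7.95 to 8.52 in HSC, 9.76 to 10.42 in PreMegE, 4.16 to 4.8 in MPP and 3.52 and 4.02 in T cells. Rhag and Ermap, membrane proteins that carry blood group antigens, were weaker in HSC than in PreMegE: Rhag lay at 4.32 to 5.23 in HSC, 7.43 to 8.18 in PreMegE, and 2.4 to 2.85 in MPP and T cells. The 3 erythroid genes that rose, Alas2 (2.35), Slc4a1 (1.47) and Trim10 (1.16), belong to late red cells, and they did so on the T cell arrays. The call of Slc4a1, the band 3 anion exchanger, ended without CD4+ T replicate 2 (0.87) and under most other alternatives. Alas2, the haem synthesis enzyme of red cells, lay at 7.42 and 9.35 there, at 5.53 on HSC replicate 2 and at 3.02 to 4.06 on the remaining arrays.

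Platelet genes had their highest levels in HSC, where the median over the list was 7.34, against 6.16 in PreMegE, 5.66 in MPP and 3.96 in T cells. Vwf, the adhesive glycoprotein of platelets and endothelium, lay at 8.72, 8.47 and 8.52 in HSC and 6.87, 7.22, 7.88 and 7.21 in PreMegE, against 4.39, 4.18 and 3.9 in MPP and 2.71 and 2.79 in T cells. The main difference was -4.48 ± 0.16 (limma adjusted p = 7.37e-12), nearly all of it present within the study (MPP minus HSC -4.41). Of 29 megakaryocyte and platelet genes, 20 fell, 4 rose and 6 were shared (Vwf, Gp1bb, Gp5, Rab27b, F10 and Cavin2), with a median of -1.01. Gp5, a subunit of the von Willebrand factor receptor, lay at 7.78 to 8.18 in HSC, 6.75 to 7.75 in PreMegE, 5.27 to 5.57 in MPP and 4.18 and 4.31 in T cells. Gp1bb, another subunit, fell by 2.86, but its next brightest probe set gave -0.17 and was not called. Cavin2, a coat protein of caveolae, lay at 6.97 to 7.82 in HSC, 5.96 to 7.41 in PreMegE, 2.69 to 3.27 in MPP and 2.46 and 2.51 in T cells. Pf4, the platelet chemokine, missed the shared rule: it lay at 10.64 to 11.09 in HSC, but at 6.41 to 6.99 in PreMegE and 6.55 to 7.04 in MPP. Itgb3, the partner of Itga2b in the fibrinogen receptor, rose by 1.41, with 5.0 to 6.26 in MPP, below the 7.43 to 8.58 of HSC, and 8.98 to 9.24 in T cells, but its next brightest probe set gave 0.04 and was not called.

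Genes tied to HSC identity mostly missed the shared rule, which also needs MPP to lie at least 2-fold below both HSC and PreMegE. Of 34 measured HSC-associated genes, 26 fell and 1 rose (Vldlr, 0.93), against 15.5% and 16.1% of all genes. The rule was met by 3 of the 34 (Vwf, Tek and Gfi1b), against 0.533% of all genes. Tek, the angiopoietin receptor, lay at 6.97 to 7.65 in HSC, 6.25 to 7.11 in PreMegE, 5.57 to 5.67 in MPP and 2.55 and 2.78 in T cells. Hlf and Procr, by contrast, joined HSC with MPP: Hlf lay at 10.65 to 10.76 in HSC and 10.42 to 10.54 in MPP, and at 5.26 to 5.93 in PreMegE. Other shared genes of this side included Apoe, the lipid carrier apolipoprotein E (10.1 to 10.52 in HSC, 10.68 to 11.53 in PreMegE, 7.52 to 7.92 in MPP, 5.44 and 6.73 in T cells), and Aldh1a1, a retinaldehyde dehydrogenase (9.17 to 9.87, 9.65 to 10.22, 7.02 to 7.13, and 4.34 and 5.62 in the same order). Grb10, an imprinted adaptor of insulin signalling, fell by 4.29, although its next brightest probe set gave -0.13 and was not called.

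Neutrophil granule genes also met the shared rule, but with 2 arrays apart from their populations. Chil3 lay at 5.26, 8.06 and 5.22 in HSC, 7.76, 5.18, 6.62 and 6.78 in PreMegE, 2.94, 4.61 and 2.53 in MPP and 2.73 and 2.22 in T cells. S100a8, a subunit of calprotectin, lay at 9.79 on HSC replicate 2 against 5.95 and 6.1 on the other HSC arrays, and at 9.44 on PreMegE replicate 1 against 6.84 to 7.89 on the other PreMegE arrays. Of 14 mature neutrophil genes, 1 rose (Itgam, 0.54), 7 were not called and 6 fell. All 6 were shared (Ngp, Camp, Ltf, S100a8, S100a9 and Chil3), and the median was -0.74. The list's mean level was 6.32 on HSC replicate 2 against 4.4 and 4.64 on the other HSC arrays, and 3.94 to 4.41 in MPP. Without that array, 2 of the genes met the rule and the median was -0.39. Without HSC replicate 2 and PreMegE replicate 1, the difference of Chil3 was -2.80, against -3.46 on all arrays.

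**Figure D3:**
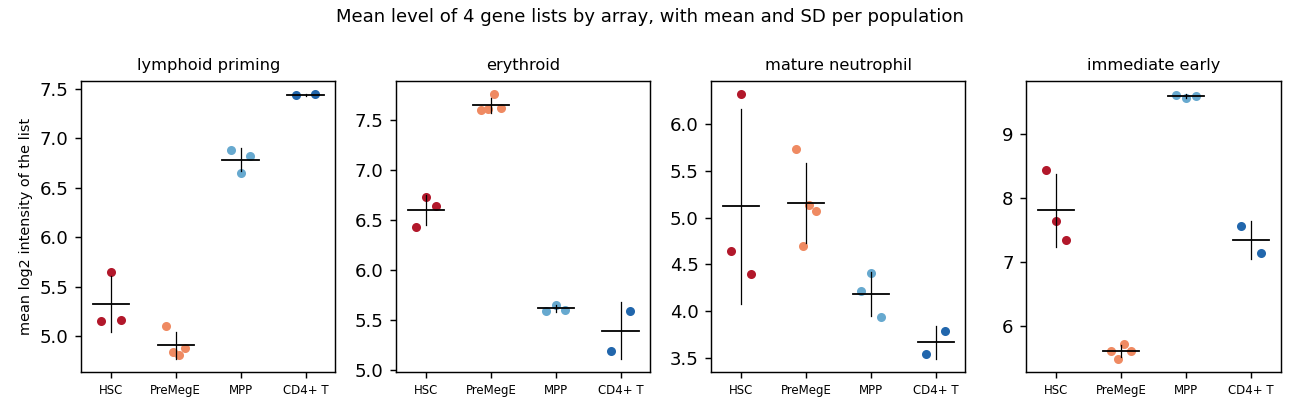
Mean log2 intensity of the measured genes of 4 lists on each array (points), by population, with the mean (horizontal line) and SD (vertical line). Lymphoid priming lies at 6.65 to 7.44 on the arrays of MPP and T cells and 4.81 to 5.65 on the others, the erythroid list lies at 7.6 to 7.76 on PreMegE arrays, HSC replicate 2 stands at 6.32 for mature neutrophil genes, and immediate early genes lie highest in MPP.

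The shared genes were not equally strong in the populations of a side. In the lymphoid-shared set the median difference was 1.57 between MPP and HSC and 3.29 between T cells and PreMegE. T cells were called higher than MPP in 57 of the 118 genes and lower in 11, and 50 were not called (35.5% of all genes were called in that pair). PreMegE was called lower than HSC in 55 and higher in 4 (28.9% of all genes called). In the HSC-PreMegE set the corresponding medians were -1.62 and -3.34. Here T cells were called lower than MPP in 47 of 97 and higher in 2, and PreMegE was called higher than HSC in 41 and lower in 4. The difference between the pairs themselves was T minus PreMegE against MPP minus HSC. It was called for 72 lymphoid-shared genes with the larger difference on the T cell side and for 4 with the larger on the MPP side. Over all genes, 24.8% were called in either direction. All of these counts draw on the same group means as the shared rule, so they describe the shared sets and do not test them. Atp8b4, a lipid-flipping ATPase, was among those with nearly equal differences: MPP minus HSC was 3.11 and T minus PreMegE was 3.28.

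The pairs MPP with HSC and T cells with PreMegE have no array in common, and so give separate measures of the same direction. Of 465 genes called and at least 2-fold higher in MPP than in HSC, 173 (37.2%) were also called and at least 2-fold higher in T cells than in PreMegE, against 9.77% of all genes. The 173 were 9.73% of the 1778 genes of the T cell pair, against 2.56% of all genes. In 45 (9.68%) the T cell pair went the opposite way, against 9.67% of all genes. For genes lower in MPP than HSC the figures were 162 of 390 (41.5%), against 9.67% of all genes, and 9.21% of the 1759 lower in T cells, against 2.14%. Here 40 (10.3%) were opposite, against 9.77% of all genes. Paired the other way, MPP with PreMegE and T cells with HSC, the picture differed (33.0% and 37.8% of all genes called): of 1687 genes higher in MPP than PreMegE, 299 (17.7%, against 10.5% of all genes) were higher in T cells than HSC, and 677 (40.1%, against 12.8%) were lower. The 299 were 15.7% of the 1904 genes higher in T cells than HSC, against 9.27% of all genes. Of 957 genes lower in MPP than PreMegE, 212 (22.2%, against 12.8%) were lower in T cells than HSC, 9.13% of the 2323 against 5.26%, and 232 (24.2%, against 10.5%) were higher. In that pairing both differences cross studies, whereas MPP minus HSC does not.

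**Figure D4:**
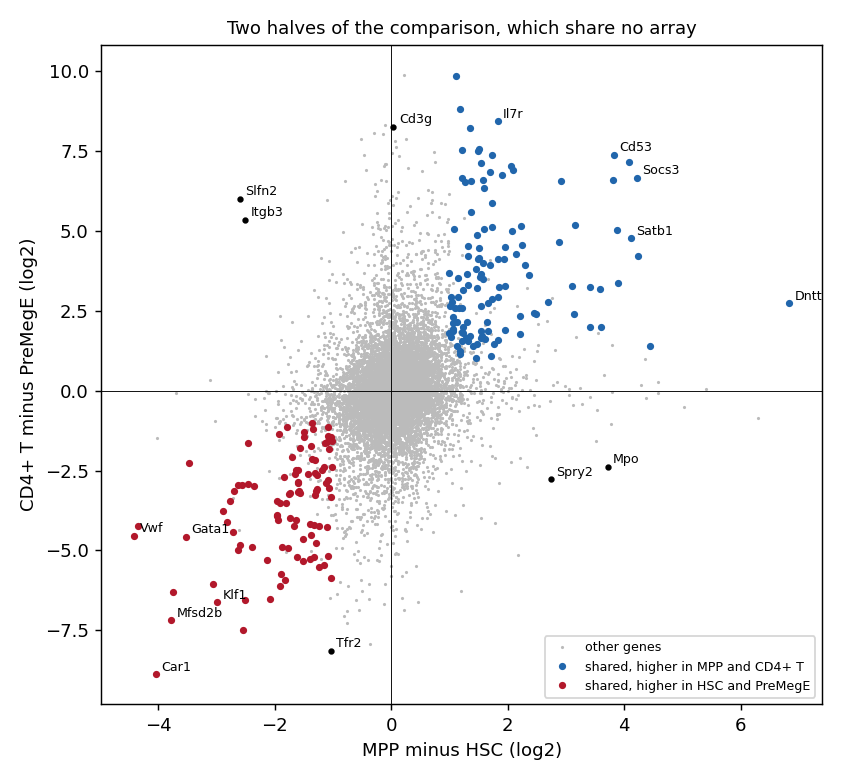
MPP minus HSC (x axis, log2) against CD4+ T minus PreMegE (y axis, log2) for each of 18193 genes, which use no array in common; blue points are the 118 shared genes higher in MPP and T cells, red points the 97 higher in HSC and PreMegE, grey points all others, and black points named genes that were not shared. Il7r sits low on the x axis (1.83) and high on the y axis (8.42), Dntt the other way (6.83 and 2.73), Vwf near the diagonal (-4.41 and -4.55), and Cd3g and Tfr2 move on the y axis.

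Most of the largest differences outside the shared set belonged to T cells alone. Cd3g, a chain of the T cell receptor complex, lay at 11.21 and 10.73 in T cells and at 2.43 to 2.87 on all other arrays, and Cd2, Cd5 and Trbv1 had the same form. Of 31 measured T cell genes, 27 rose, 2 fell and 5 were shared (Cd27, Cd28, Icos, Ctla4 and Tespa1), and the list's median was 2.48 in the main comparison but 0.02 between MPP and HSC. Ltb, the cytokine lymphotoxin beta, came near to sharing: 7.25 to 7.74 in HSC, 4.31 to 4.81 in PreMegE, 8.13 to 8.33 in MPP and 11.38 and 12.22 in T cells. On the other side, Tfr2, a transferrin receptor, lay at 10.87 to 11.56 in HSC and PreMegE and 10.41 to 10.51 in MPP, but at 2.86 and 3.04 in T cells. Meis1, a homeobox factor of stem and progenitor cells, lay at 11.18 to 11.54 in HSC, 9.47 to 10.17 in PreMegE, 10.24 to 10.39 in MPP and 3.0 and 3.55 in T cells. Cell division genes behaved likewise: 23 of 26 mitosis genes fell and 1 rose, 22 of 28 DNA replication genes fell and none rose, and none was shared, with medians of -1.25 and -0.72 that were -0.01 and 0.20 between MPP and HSC.

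**Figure D5:**
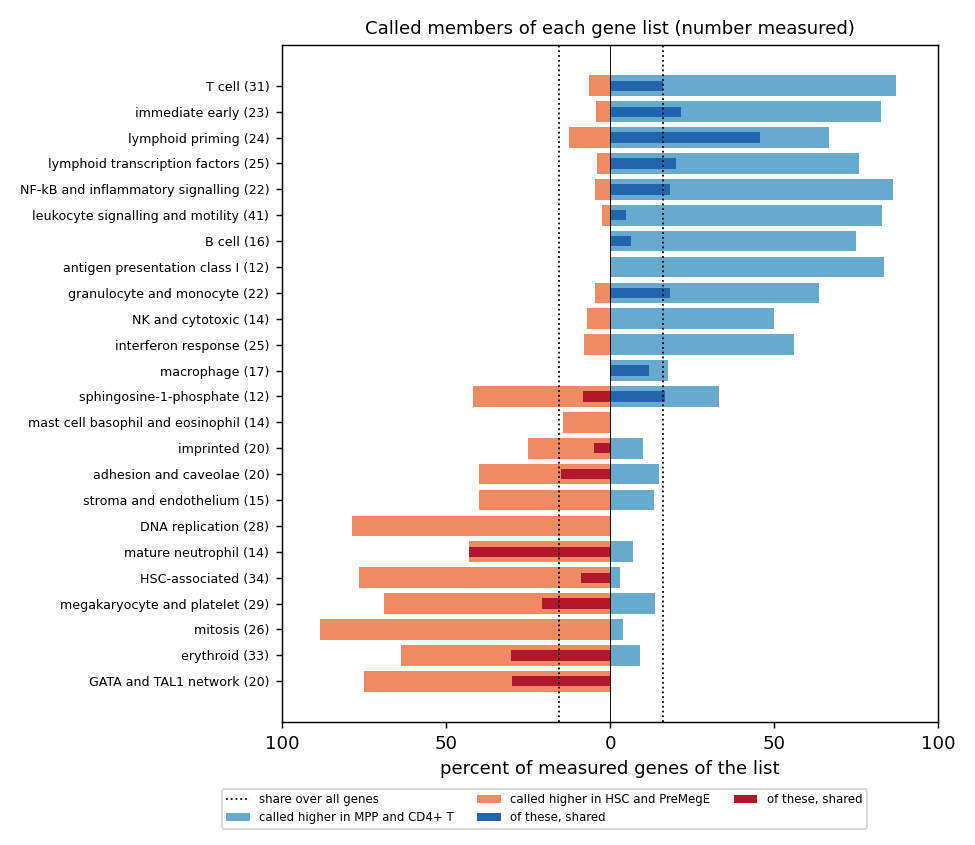
Percent of the measured genes of each list (number measured in parentheses) that were called higher in MPP and T cells (blue, to the right) or in HSC and PreMegE (orange, to the left), with the shared genes as dark inner bars and the share over all genes (16.1% and 15.5%) as dotted lines. The GATA and TAL1 network has 15 of 20 to the left and none to the right, the T cell list 27 of 31 to the right with 5 shared, and mitosis 23 of 26 to the left with none shared.

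Promoters of the shared genes were searched for 4 short motifs in the 250 bases before each RefSeq start site (assembly GRCm38.p6), on both strands: AGATAA for GATA factors, AGGAAGT for ETS factors, TGTGGTT for RUNX factors and CCACACC for KLF factors. The ETS letters stood before 20 of the 87 lymphoid-shared genes with a promoter (23%), before 6 of 84 of the other set (7.14%) and before 8.78% of 14452 measured genes. The GATA letters stood before 11 of 84 genes of the HSC-PreMegE set (13.1%), 10 of 87 of the lymphoid set (11.5%) and 8.79% of measured genes. The RUNX letters stood before 5.75% and 5.95% of the lymphoid and HSC-PreMegE genes (4.35% of measured genes), and the KLF letters before 4.6% and 10.7% (7.93%). A gene counted if any of its start sites matched, and the sets had 127 sites for 87 genes and 102 for 84 (18109 for 14452 measured). Per site, ETS letters stood before 16.5% and 5.88% (7.47% of measured), and GATA letters before 8.66% and 10.8% (7.4%), in the same order. These are counts of letters and not of binding, and the windows of Cd53, Gata1 and Mfsd2b held none of the 4. Examples of both sets, chosen for their matches, follow, 5′ to 3′ on the strand of the gene, each ending at the base before the start site, with the matches in capitals: the ETS letters for Il7r (chr15:9529877-9530126, minus strand), Atp8b4 (chr2:126491554-126491803, minus strand, 2 matches) and 1 of the 5 listed starts of Satb1 (chr17:51826589-51826838, minus strand), and the GATA letters for Epor, the erythropoietin receptor (chr9:21963577-21963826, minus strand), Gp5 (chr16:30310782-30311031, minus strand, 2 matches) and Icam4, a red cell adhesion molecule (chr9:21029182-21029431, plus strand).
Il7r: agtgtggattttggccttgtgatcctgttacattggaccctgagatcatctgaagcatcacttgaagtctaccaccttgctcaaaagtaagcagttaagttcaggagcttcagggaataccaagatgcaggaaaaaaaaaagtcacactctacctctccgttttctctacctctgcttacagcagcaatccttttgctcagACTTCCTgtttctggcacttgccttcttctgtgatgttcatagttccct
Atp8b4: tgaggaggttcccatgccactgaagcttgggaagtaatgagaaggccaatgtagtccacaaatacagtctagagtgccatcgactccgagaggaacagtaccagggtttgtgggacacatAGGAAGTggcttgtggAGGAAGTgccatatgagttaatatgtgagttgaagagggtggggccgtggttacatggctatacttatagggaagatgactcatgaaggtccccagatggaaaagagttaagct
Satb1: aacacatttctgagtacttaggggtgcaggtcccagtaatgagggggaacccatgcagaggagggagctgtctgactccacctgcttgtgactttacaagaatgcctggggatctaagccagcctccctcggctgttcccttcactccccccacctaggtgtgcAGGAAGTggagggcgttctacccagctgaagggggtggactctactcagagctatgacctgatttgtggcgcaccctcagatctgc
Epor: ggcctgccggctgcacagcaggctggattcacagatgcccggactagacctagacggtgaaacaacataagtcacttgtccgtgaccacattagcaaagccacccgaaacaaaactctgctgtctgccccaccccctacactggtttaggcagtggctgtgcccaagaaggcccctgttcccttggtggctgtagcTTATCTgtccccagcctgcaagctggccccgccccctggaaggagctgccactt
Gp5: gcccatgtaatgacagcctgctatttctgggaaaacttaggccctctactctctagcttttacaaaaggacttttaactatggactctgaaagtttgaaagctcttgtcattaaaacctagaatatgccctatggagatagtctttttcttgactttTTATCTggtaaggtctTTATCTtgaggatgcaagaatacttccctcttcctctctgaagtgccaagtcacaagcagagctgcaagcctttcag
Icam4: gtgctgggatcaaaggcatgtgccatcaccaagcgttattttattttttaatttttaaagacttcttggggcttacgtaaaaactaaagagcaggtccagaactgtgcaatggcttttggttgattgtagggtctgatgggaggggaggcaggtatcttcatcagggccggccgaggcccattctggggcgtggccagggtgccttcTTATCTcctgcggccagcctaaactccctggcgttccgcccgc
In Il7r and in the GATA examples the capitals are the reverse complement of the letters searched, ACTTCCT and TTATCT. Epor lay at 5.66 to 5.87 in HSC, 6.85 to 8.1 in PreMegE, 4.26 to 4.88 in MPP and 4.39 and 4.59 in T cells, and Icam4 at 6.62 to 6.77, 7.12 to 7.41, 4.83 to 5.01, and 4.01 and 4.06 in that order.

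At the limit of the shared rule the genes just inside and outside were alike. Just inside were Ppp1r18, Ppp4c and Cd37 on the lymphoid side and G2e3, Otub2 and Slbp on the other, and just outside were Tiparp, Fgf13 and Ms4a6c, and Usp46, Vapb and Hemgn. Hemgn, a nuclear protein of red cell precursors, lay at 10.97 to 11.23 in HSC, 10.08 to 10.58 in PreMegE, 9.25 to 9.35 in MPP and 5.15 and 5.31 in T cells. For Cd37, Otub2, Slbp, Fgf13 and Vapb the next brightest probe set was not called. A low population of 22 lymphoid-shared and 20 HSC-PreMegE-shared genes had a mean under the lower quartile over genes of that population (3.27 to 3.35), where the size of a difference is least certain.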

How the data were processed

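For each array the authors deposited an intensity for every probe set, made with RMA according to their labels (per the submitters' processing notes), whose version is not given in the sources used here. The values were linear, and log2 was taken with no further normalisation or filter. Of 45101 probe sets, 64 controls were left out and 34945 had 1 gene symbol in the platform annotation, of which 34741 matched a RefSeq gene (GRCm38.p6), 0 symbols changing. Each gene was read from its brightest probe set on average over the 12 arrays. A mean per population was fitted with limma 3.58.1 (R 4.3.3, files read with version 1.17.8 of data.table) and eBayes. Tests were two-sided, with Benjamini-Hochberg adjustment across all 18193 genes. "Rose", "fell" and "called" mean an adjusted p under 0.05. On simulated data with 100 genes changed at each size, the fit recovered 89% of changes of 1 (log2) and 100% of changes of 2, with 5 false calls. Alternatives covered normalisation, probe set, low values, variance trend, replicate number, weighting, fold limit, study and single arrays.

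Named genes were the markers, sort genes, the 12 shared genes a side whose weakest of the 4 differences was largest, the 6 largest other genes a side, up to 4 called members a list, and the 3 genes nearest the limit on either side of it. Further shared genes and list members were named after their values were seen. Those members and lists were chosen with earlier results of these data known. The fourth PreMegE array is numbered 3 in its description, and averaging both arrays numbered 3 gave 5967 calls. Whether replicates came from separate animals is not stated in the labels, and the p-values then measure only how far these samples spread, which may be technical. Tcf7, Lck and Ly6a were among list genes not measured by a probe set with 1 symbol.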

Additional observations from a re-analysis of the deposited data

Results flagged for a closer look

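Among the genes named here, 7 of the 125 examined had 1 PreMegE array set apart from the other 3, by the gap to the nearest array relative to the whole range. Chance alone sets apart about 1 in 20. Ighm stood at 9.35 and Jchain at 6.03 on PreMegE replicate 1, against highest values of 4.36 and 3.27 on the other PreMegE arrays. F10, a clotting factor, stood at 6.5 on replicate 4, Myc at 9.94 and Sox4 at 10.79 on replicate 3, Ebf1 at 3.19 on replicate 2, and Trbv1 at 2.53 on replicate 4. The last 2 lie near the lower end of all values.

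In 85 genes (0.467% of those tested) MPP differed from HSC and T cells differed from PreMegE in opposite directions, each called and at least 2-fold. In 45 MPP was the higher and T cells the lower, and in 40 the reverse. The 45 were 9.68% of genes at least 2-fold higher in MPP than HSC, against 9.67% of all genes lower in T cells than PreMegE. The 40 were 10.3% of those lower in MPP, against 9.77% of all genes higher in T cells. Both counts thus lay near the share over all genes. The rule for these genes also required the difference between both changes (T minus PreMegE against MPP minus HSC) to be called in limma. Its call for each of the 8 described here is therefore no separate result. In the main comparison Slfn2 (1.69), Itgb3 (1.41) and Adgrg3 (-1.48) were called, and the other 5 were not. Spry2, a feedback inhibitor of receptor tyrosine kinases, had means of 5.54, 8.28, 5.84 and 3.06 in the order HSC, MPP, PreMegE, T cells, an interaction of -5.52. Mpo had 7.67, 11.38, 6.09 and 3.71 in the same order (-6.10), and the adhesion receptor gene Adgrg3 had 7.99, 10.17, 9.21 and 4.06 (-7.33). Ier3 (-4.71), Smim3 (-4.31) and Nr4a2 (-4.27) had the same form. The opposite form was seen for Slfn2, which holds T cells and monocytes quiescent, with 8.35, 5.75, 5.10 and 11.09 (8.58), and for Itgb3 with 8.04, 5.53, 3.77 and 9.11 (7.85). With the next brightest probe set the interaction was not called for Spry2 (-0.50) or Itgb3 (0.84).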

How the results depend on the processing

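The count of genes called in the main comparison stayed between 4630 and 6212 in the 23 alternatives that kept the same contrast, and within the study alone (MPP minus HSC) it was 2058. The normalisation moved the share of called genes that were higher in MPP and T cells from 51.1% to 43.9% with quantile normalisation and 49.2% with cyclic loess, and the median of all genes by less than 0.1. Leaving out each array in turn gave 5131 to 6212 calls, 113 to 134 shared genes higher in MPP and T cells, and 86 to 105 higher in HSC and PreMegE. For MPP against HSC it gave 1280 (without MPP replicate 3) to 2341 calls. With replicate 1 alone standing for HSC, assumed to vary like the other groups, MPP against HSC had 779 calls and PreMegE against HSC 3395. The next brightest probe set gave 118 and 64 shared genes on the lymphoid and the other side, of which 69 and 54 were the same genes, and the mean of all probe sets 88 and 60, of which 73 and 57 were the same. Only 9010 of 18193 genes had more than 1 probe set. The others kept their values in both alternatives, which therefore did not test them. A 1.5-fold limit gave 322 and 264 shared genes, and a 4-fold limit 20 and 22. The titles share replicate numbers, but same-numbered arrays deviated together only with correlations of -0.119 to 0.413, so the numbers do not pair the samples, and a replicate block gave 5862 calls. Signs turned with the next brightest probe set for Cd82 (-0.29), Cd8a (0.17), Fgf13 (-0.16), Ms4a2 (0.01), Plagl1 (-0.02) and Pax5 (0.06), with the mean of all probe sets for Ebf1 (0 after rounding), and with arrays weighted equally within a side for Hlf (0.34), Mecom (0.14) and Procr (0.79). Cd8a also turned with the mean of all probe sets (0.11), without CD4+ T replicate 1 (0.04, and -0.13 without replicate 2) and without HSC replicate 2 and PreMegE replicate 1 together (0.01), and Rag1 ranged from -0.05 to 0.12 as single arrays were left out. Within the study (MPP minus HSC), 119 of 177 named genes kept direction and side of the threshold. Another 54 either lost the call or had the opposite sign without being called in both comparisons. In the same direction, 1 was called only there. Pdgfrb (1.20), Itgb3 (-2.51) and Sox4 (1.55) had the opposite sign and were called in both. The cause was not tested in any of these. Both alternatives on single arrays of HSC and PreMegE were chosen after seeing the data. The 2 T cell arrays limit every difference that involves them, and genes near the lower end of the intensities have the least certain sizes.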

Other observations

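Sphingosine-1-phosphate genes divided between the sides. Of 12 measured, 4 rose and 5 fell, with a median of 0.07. The exporter Mfsd2b (-5.48) fell, while the receptor S1pr1 (2.92) and the lyase Sgpl1 (2.47), which degrades the lipid, were in the lymphoid-shared set. The next brightest probe set of Sgpl1 gave 0.18 and was not called. Spns2, another exporter, fell by 3.15, but MPP lay at 9.25 to 9.51, beside 9.02 to 9.94 in HSC and PreMegE, and T cells at 2.89 and 3.35.

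Antigen presentation and motility genes rose with less sharing. Of 12 class I genes, 10 rose and none fell, and none was shared, with a median of 0.81 (0.40 between MPP and HSC). Of 41 genes of leukocyte signalling and motility, 34 rose, 1 fell (Itga4, -0.68) and 2 were shared (S1pr1 and Gimap7), with a median of 1.37 (0.46 between MPP and HSC). Cd48, a signalling partner on white blood cells, lay at 4.53 to 5.26 in HSC, 7.45 to 7.58 in MPP, 7.4 to 8.76 in PreMegE and 10.1 and 10.35 in T cells, so PreMegE sat with MPP. Of 25 interferon response genes 14 rose and 2 fell (median 0.40), of 14 NK and cytotoxic genes 7 rose and 1 fell (0.43), and of 20 imprinted genes 2 rose and 5 fell (-0.12). Of 20 adhesion and caveola genes 3 rose and 8 fell (-0.18), and of 15 stromal and endothelial genes 2 rose and 6 fell (-0.21). Of 14 mast cell, basophil and eosinophil genes 2 fell (-0.08), led by Cpa3 at 7.51 to 8.12 in PreMegE against 5.56 to 6.35 in HSC. The call of the other, Ms4a2, ended in 9 of the fits that left out 1 array. Over all genes 31.6% were called (16.1% rose and 15.5% fell), and the called share of the imprinted genes lay near that. The share of mast cell, basophil and eosinophil genes that fell also lay near the 15.5% of all genes. Ccl3, a chemokine, lay at 8.11 to 8.86 in MPP and no higher than 3.38 elsewhere.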
